A study of Mus musculus with 6 samples.

Results

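The J-domain proteins, named DNAJ in mouse and also called the HSP40 family, are the co-chaperones that deliver substrates to HSP70. The family was taken as every row of the deposited count table whose symbol starts with Dnaja, Dnajb or Dnajc followed by a number, with pseudogene rows marked -ps left out. This gave 45 genes of 55291 in the table: 4 of class A, 13 of class B and 28 of class C. A count was present for 44 of them, and 42 passed the low-count filter and were tested.

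RNA was sequenced from splenic natural killer (NK) cells of 6 mice at steady state, 1 mouse per library. One group of 3 was wild type for heat shock factor 1 (HSF1), the transcription factor of the heat shock response (WT 1, 2 and 3). The other group of 3 carried HSF1 with serines 303 and 307 replaced by alanine (S303/7A 5, 6 and 7). The labels give no treatment, strain, age or sex for either group, and they give the S303/7A allele as a genotype of the mice, not of the NK cells alone. The cells were sorted as CD49b-positive and CD3e-negative, and 10 NK markers summed to 20480 to 23630 CPM across the libraries. Single markers differed within that sum, without overlap between the groups and in both directions. Klrb1c had a mean of 2463 CPM in WT against 1690 in S303/7A, and Klrk1 one of 1432 against 2119. CPM here are counts relative to the library total, scaled between libraries with edgeR's TMM factors.

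A J domain is a short helical fold with a conserved histidine, proline and aspartate motif that makes HSP70 hydrolyse ATP and close on its substrate. Class A proteins carry, besides the J domain, a glycine- and phenylalanine-rich stretch and a zinc-binding region. Class B proteins keep the former and lack the latter, and class C holds all others, which often act on 1 compartment or 1 substrate. Cytosolic members such as Dnaja1, Dnajb1 and Dnajb4 are known as heat shock genes, and Dnajb9, Dnajb11 and Dnajc3 as genes of the unfolded protein response of the endoplasmic reticulum (ER).

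HSF1 is known to bind repeats of the unit GAA in alternating orientation, called heat shock elements. Promoter windows from RefSeq (GRCm38.p6, 250 bases before to 50 after each start) were found for 37 of the 45 genes. An element of 3 units, GAA, TTC and GAA with 2 free bases between neighbours, searched on both strands, lay in 1 of the 37 members, or 2.70%, against 0.662% of all 27025 genes with a window. That member was Dnajb6. A 2-unit element, GAANNTTC or TTCNNGAA, lay in 7 members (18.9%), against 17.0% of all genes, and every 3-unit match holds such 2-unit matches. The members were Dnaja1, Dnaja4, Dnajb4, Dnajb6, Dnajc10, Dnajc27 and Dnajc5g. The ER stress element, CCAAT and CCACG with 9 free bases between, also searched on both strands, lay in 1 member (2.70%), Dnajc3, against 0.137% of all genes. The 27025 genes were not limited to those tested here. A match is a run of letters and not a site of binding.

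The stretches below are shown because they hold these elements in members known as stress genes or described further on. Each reads 5′ to 3′ on the gene's strand, with the element in capitals. They lie at chr5:29735844-29735872 (Dnajb6, + strand), chr4:40722334-40722362 (Dnaja1, +), chr9:54699459-54699487 and chr9:54699497-54699525 (Dnaja4, +), chr3:152193841-152193869 (Dnajb4, −), chr12:4082351-4082379 (Dnajc27, +) and chr14:118937822-118937850 (Dnajc3, +). Windows are set on RefSeq starts, and by the GENCODE annotation the stretches of Dnajb6, Dnaja1, Dnaja4 and Dnajb4 lie inside the gene, past its outermost start. All 29 bases are exonic for Dnajb6 and for Dnaja1, 12 for the second of Dnaja4, 5 for Dnajb4 and 0 for the first of Dnaja4. Those of Dnajc27 and Dnajc3 lie before the gene.
Dnajb6: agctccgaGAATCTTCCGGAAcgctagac
Dnaja1: aaagcctctaGAAAATTCtacgaggctcg
Dnaja4, first: gaacctccgcGAACGTTCtgggcctatgt
Dnaja4, second: cctcctggcgGAACCTTCcgccggcgccg
Dnajb4: tcgttcgctgTTCTAGAAagtacagagac
Dnajc27: acccatcggtGAAGATTCcaggaaaaaaa
Dnajc3: cacaaCCAATCAGCGCCAACCACGacccg

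Dnajb1 is the textbook heat-inducible member, and its windows held neither the 3-unit nor the 2-unit letters. The 120 bases before its outer start (chr8:83608055-83608174, + strand) are shown with each GAA or TTC unit in capitals. The units stand singly there, and none faces another at the spacing searched.
Dnajb1: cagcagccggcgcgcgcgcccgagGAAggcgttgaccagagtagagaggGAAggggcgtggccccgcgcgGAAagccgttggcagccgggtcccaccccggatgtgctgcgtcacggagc

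NK cells held the family at very unequal levels. By mean CPM over the 6 libraries, 13 members were at 100 or more, 18 from 10 to 100, 9 from 1 to 10 and 5 below 1. The 5 most abundant, Dnajc5, Dnaja2, Dnajc3, Dnaja1 and Dnajb1, made up 38.4% of the family's summed CPM, and the first 15 made up 81.8%. Class C held 63.1% of the sum, class B 19.1% and class A 17.7%. Per kilobase of exon, which allows levels of different genes to be compared, class A was led by Dnaja2 (81.9 CPM per kilobase), Dnaja1 (25.5) and Dnaja3 (18.8). Dnaja2 is a constitutive cytosolic co-chaperone and Dnaja3 the mitochondrial one. Class B was led by Dnajb1 (65.5), the ER luminal co-chaperone gene Dnajb11 (51.4) and Dnajb9 (14.9), and class C by Dnajc8 (68.1), a spliceosome-associated member, Dnajc9 (50.3), a histone co-chaperone, and Dnajc3 (45.7), the ER member that also inhibits the kinase PERK. With the longest transcript as length instead, Dnajb6 took the place of Dnajb9 and Dnajc7 that of Dnajc3 among these.

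**Figure D1:**
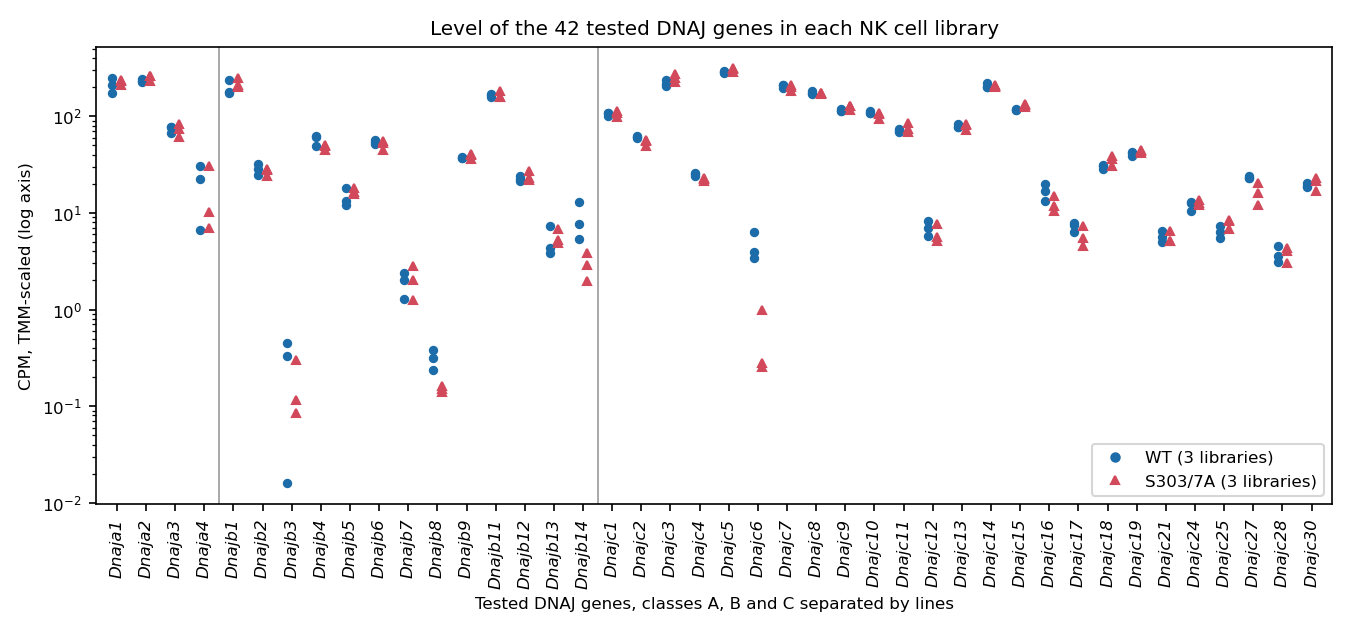
CPM (log axis) of each of the 42 tested DNAJ genes in 3 WT libraries (circles) and 3 S303/7A libraries (triangles), with vertical lines between classes A, B and C. Points of both genotypes overlap for 35 genes, while Dnajc6 and Dnajb14 have all S303/7A points below all WT points.

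At the bottom, Dnajc5g had no count in any library, and Dnajc22 and Dnajc5b had 1 count each. A count of 0 over the 323363303 counts of all libraries allows up to 0.00928 CPM, for counting error only. The testis-type genes Dnajb3 and Dnajb8 had 74 and 80 counts in all.

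None of the 42 tested members passed an adjusted p of 0.05 between the genotypes in edgeR's quasi-likelihood test, where 0.364% of all 16480 tested genes did (0.133% higher and 0.231% lower in S303/7A). Limma-voom also called 0, and DESeq2 called 2, Dnajc6 and Dnajb14, where it called 2.65% of all genes. At an unadjusted p under 0.05 in edgeR there were 4 members, Dnajc6, Dnajb14, Dnajc27 and Dnajc15, or 9.52% of the 42, against 9.68% of all tested genes. The CPM values of the 2 genotypes did not overlap for 7 members, or 16.7%, against 16.0% of all genes. Both shares lie at the background. Of the 4, Dnajc15 was higher in S303/7A, where 4.21% of all genes were, and the other 3 were lower, where 5.47% of all genes were. The 7 were Dnajc6, Dnajb14, Dnajc27, Dnajc15, Dnajb8, Dnajc2 and Dnajc4.

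Expressed as S303/7A over WT, the log2 fold had a median of 0.0021 over the 42 members, against 0.0088 for all tested genes. Of the members 22 had a fold above 0 and 20 below. Medians by class were 0.03 for the 4 genes of class A, 0.02 for 13 of class B and 0.0016 for 25 of class C. For 38 members (90.5%) the fold was under 1.5 in either direction, against 82.0% of all genes. The 95% interval of the fold lay within a 2-fold change either way for 36 of the 42 members, and for 9462 of all 16480 tested genes. The exceptions among the members were Dnajc6, Dnajb14, Dnaja4, Dnajb3, Dnajb7 and Dnajb8. The interval of Dnajc6 lay wholly beyond a 2-fold lower level, and those of the other 5 held a 2-fold difference in at least 1 direction.

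**Figure D2:**
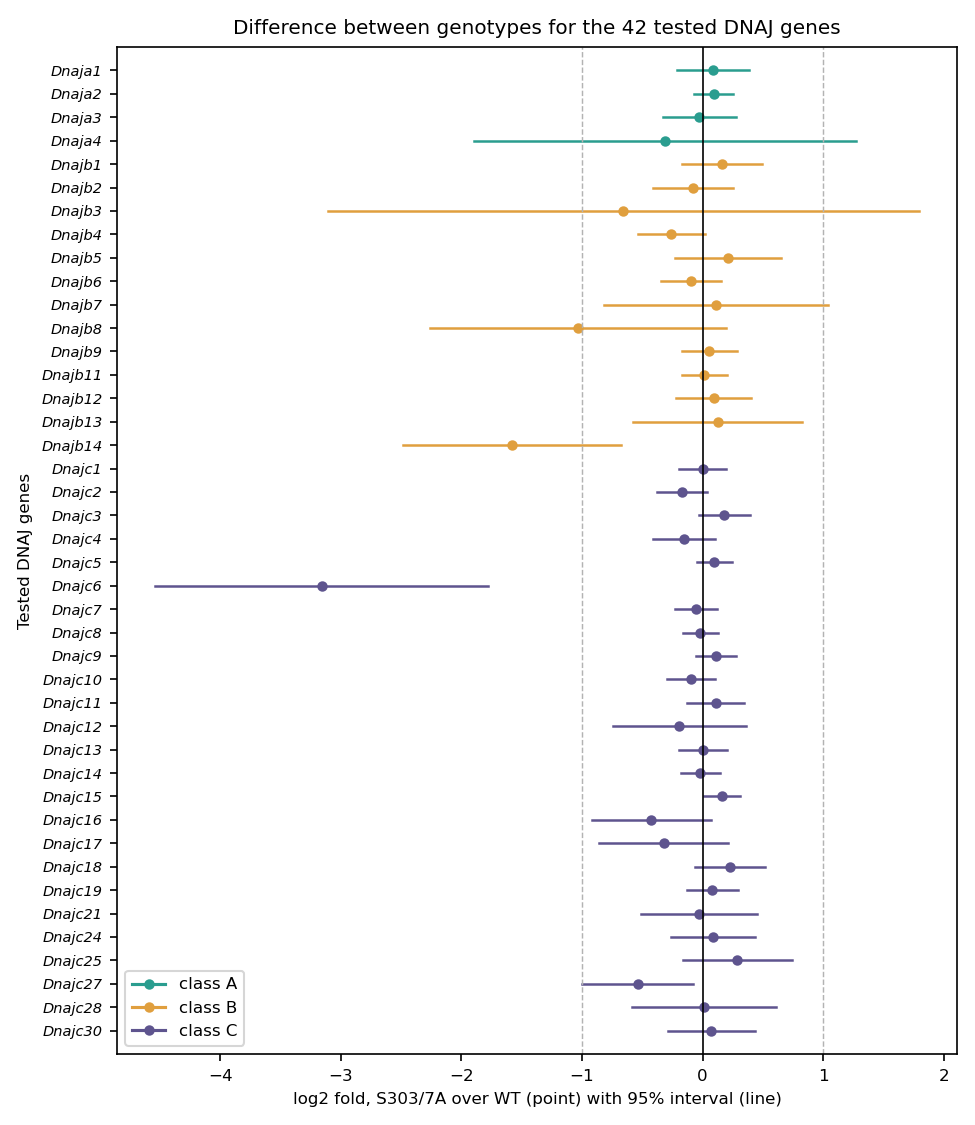
Log2 fold of S303/7A over WT (points) with its 95% interval (lines) for the 42 tested DNAJ genes, coloured by class, with dashed lines at a 2-fold difference. The intervals of Dnajc6, Dnajb14 and Dnajc27 lie below 0, that of Dnajc15 just above 0, and 36 intervals stay between the dashed lines.

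Summed over class A, CPM was 565, 505 and 559 in WT 1, 2 and 3, against 577, 561 and 563 for S303/7A 5, 6 and 7. Class B summed to 563, 575 and 646 CPM in WT libraries against 579, 608 and 628 in S303/7A libraries, and class C to 1962, 1939 and 1969 against 2038, 1984 and 1975. The genotype means were within 5% of each other, with ratios of S303/7A to WT of 1.04, 1.02 and 1.02 for classes A, B and C. The ranges overlapped in classes A and B. In class C they did not, by a narrow margin. With library totals over all counts and no TMM, the difference of the class C means was 3.51 CPM instead of 42.4. That of class B, 10.3 CPM, was -1.62 with library totals, -5.38 without WT 1 and -1.23 without S303/7A 7. That of class A, 23.8 CPM, was 4.70 without WT 2.

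Cytosolic members that work with HSP70 on general folding, 9 in all, showed 0 calls and 0 at an unadjusted p under 0.05, with a median log2 fold of -0.05. Over all tested genes the shares were 0.364% and 9.68%, and 0 of 9 cannot be told apart from these. Dnaja1, whose protein assists HSP70 in refolding, was at 213, 176 and 251 CPM in WT libraries against 233, 211 and 237 in S303/7A libraries. The S303/7A values lay inside the WT range, and the log2 fold was 0.09 ± 0.13 (SE). Dnajb1 was at 176, 178 and 240 CPM in WT libraries against 204, 210 and 250 in S303/7A libraries. WT 3 and S303/7A 7 were the high libraries of their groups, and the fold was 0.16 ± 0.14. Dnajb4, a relative of Dnajb1, was at 62.2, 49.5 and 60.5 CPM in WT libraries against 50.4, 44.3 and 49.2 in S303/7A libraries, with overlap through WT 2 and a fold of -0.26 ± 0.12. From edgeR's quasi-likelihood test their adjusted p values were 0.907, 0.813 and 0.545, and the 95% intervals ran from -0.21 to 0.39, from -0.17 to 0.49 and from -0.53 to 0.02. The direction of Dnaja1 rests on WT 2, without which its fold was -0.042.

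The constitutive cytosolic members had log2 folds from -0.09 to 0.21, with overlap in each. Dnaja2 was at 244, 228 and 235 CPM in WT libraries against 259, 260.3 and 234 in S303/7A libraries, a log2 fold of 0.09 ± 0.07 (SE). Dnajb6, an anti-aggregation chaperone and the gene with the 3-unit element printed above, was at 54.2, 57.3 and 52.0 CPM in WT libraries against 52.5, 55.5 and 45.2 in S303/7A libraries, a fold of -0.09 ± 0.11. Dnajc7, which also binds HSP90 through its repeats, had a fold of -0.05 ± 0.08. Dnajb2, known from neurons, had one of -0.08 ± 0.14, and Dnajb5 one of 0.21 ± 0.19.

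ER members, 12 genes of which 11 were tested, had a median log2 fold of 0.02 and 0 calls. Only 1, Dnajb14, was at an unadjusted p under 0.05, where 9.68% of all tested genes were. Dnajb9, which binds the HSP70 of the ER and acts on the sensor IRE1, was at 37.3, 37.6 and 36.9 CPM in WT libraries against 35.9, 40.5 and 39.97 in S303/7A libraries. Dnajb11 was at 160, 172 and 166 CPM in WT libraries against 160, 184 and 159 in S303/7A libraries. Dnajc3 was at 237, 218 and 206 CPM in WT libraries against 271, 252 and 226 in S303/7A libraries. All 3 overlapped between the genotypes, with log2 folds of 0.06 ± 0.10, 0.02 ± 0.08 and 0.18 ± 0.09 (SE) and 0.926, 0.978 and 0.599 as adjusted p from edgeR's quasi-likelihood test. Among the other ER members, Dnajc10, a disulphide reductase that helps clear misfolded proteins, had a fold of -0.10 ± 0.08, Dnajc1 one of 0.0016 ± 0.08, Dnajc14 one of -0.02 ± 0.07 and Dnajc25 one of 0.29 ± 0.19. Dnajc16 (13.2 to 19.97 against 10.6 to 14.9 CPM, fold -0.42 ± 0.21) and Dnajc18 (28.7 to 31.6 against 30.7 to 38.9 CPM, fold 0.23 ± 0.12) overlapped between the genotypes too.

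Dnajb14 encodes an ER membrane protein that recruits cytosolic HSP70 and is related to Dnajb12. Its gene lies on chromosome 3 from 137867675 to 137916557 (GRCm38, + strand). The library values were 5.41, 7.76 and 12.9 CPM for WT 1, 2 and 3, against 1.98, 2.92 and 3.81 CPM for S303/7A 5, 6 and 7. Every S303/7A library was below every WT library, although WT 3 was more than 2-fold above WT 1. Means were 8.68 ± 3.82 and 2.91 ± 0.914 CPM (SD, n = 3 each), and the log2 fold of -1.58 ± 0.39 (SE) had 0.225 as the adjusted p from edgeR's quasi-likelihood test, which did not pass. DESeq2 gave an adjusted p of 0.00368, and over all 13 alternatives it ranged up to 0.52. Its closest relative Dnajb12 was at 22.6 ± 1.58 and 24.1 ± 2.73 CPM, a fold of 0.09 ± 0.13. Stretches of 200 to 211 bases of the Dnajb14 transcript match 23 other genes at 95% identity or more, so some of its reads are uncertain.

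The 120 bases before the Dnajb14 start (chr3:137867555-137867674, + strand) are shown because it is the class B member with the largest fold. They hold no heat shock element of either kind, and the capitals mark a GC box, here the letters GGGCGG on the opposite strand. A GC box lay in a window of 25 of the 37 members (67.6%), against 38.2% of all 27025 genes with a window. The latter were not limited to genes tested here, so the 2 sets are unlike in expression.
Dnajb14: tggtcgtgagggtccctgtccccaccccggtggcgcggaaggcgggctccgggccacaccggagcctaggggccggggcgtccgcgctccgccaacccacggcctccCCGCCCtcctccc

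Dnajc6 had the largest fold of the family. It encodes auxilin, which brings HSC70 to clathrin-coated vesicles to strip their coat, and is known best from neurons. The gene lies on chromosome 4 from 101496648 to 101642799 (GRCm38, + strand). Its reads numbered 251, 345 and 250 in WT 1, 2 and 3, against 11, 12 and 46 for S303/7A 5, 6 and 7, or 3.98, 6.34 and 3.40 CPM against 0.257, 0.278 and 0.985 CPM. The highest S303/7A library, 7, stood at less than 1 CPM and below the lowest WT library. Means were 4.57 ± 1.56 and 0.507 ± 0.414 CPM (SD, n = 3 each), a level 8.94-fold higher in WT by the fit.

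The log2 fold of Dnajc6 was -3.16 ± 0.59 (SE, 95% interval -4.54 to -1.78), and it missed the threshold with an unadjusted p of 0.000933 and 0.115 as the adjusted p from edgeR's quasi-likelihood test. It passed in DESeq2 (adjusted p 6.46e-06), in the fit on unfiltered genes (0.0119, where 0.502% of genes passed) and with library S303/7A 7 left out (0.0441, log2 fold -4.09, where 0.172% passed). The other alternatives, 10 in number, did not call it, and the highest adjusted p was 0.384. Auxilin's ubiquitous relative Gak, a J-domain gene without a DNAJ name, was at 300, 313 and 309 CPM in WT libraries against 336, 317 and 305 in S303/7A libraries. The log2 fold of Gak was 0.05 ± 0.06, and its genotypes overlapped.

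Markers of other cell types, among them basophils and platelets, which carry CD49b, were at different levels in the same libraries. Over 9 basophil markers, summed CPM ran from 419.8 to 857.9 for WT against 257.4 to 359.8 for S303/7A, with all 9 folds below 0 and none of the genes at 0. Over 10 platelet markers it ran from 259.5 to 284.5 for WT against 120.8 to 163.4 for S303/7A, with all 10 folds below 0. Erythroid (32.6 to 36.05 against 16.4 to 20.1 CPM) and neutrophil sums (51.5 to 89.0 against 30.1 to 39.2) were also without overlap. The T cell sum lay the other way (129.2 to 178.4 against 181.1 to 206.6). Single markers in these 3 lists were mixed: 5 of 8 tested erythroid folds and 4 of 6 tested neutrophil folds were below 0. Of 9 T cell folds, 8 were above 0 and 1 below, that of Trac (-0.51). Trbc2 was the largest part of the T cell sum, with means of 79.5 CPM in WT against 104.3 in S303/7A. Among the neutrophil markers, Cxcr2 drew 12211 counts over the libraries, against 145 for S100a8 and 221 for S100a9, whose folds were above 0. B cell (332.2 to 687.5 against 521.9 to 654.4) and monocyte sums (45.6 to 70.0 against 42.1 to 55.9) overlapped. WT 2 was highest in Dnajc6 and in the basophil sum, while for Dnajb14 WT 3 was highest. S303/7A 7 was the highest of its group in each of them. The order of the other libraries differed between Dnajc6 and the basophil sum. WT 1 was above WT 3 in Dnajc6 (3.98 against 3.40 CPM) and below it in the sum (419.8 against 573.4). S303/7A 6 was above S303/7A 5 in Dnajc6 (0.278 against 0.257 CPM) and below it in the sum (257.4 against 305.5). The part of these cells in the values of Dnajc6 and Dnajb14 was not tested, and in RNA from a whole sort fewer cells of a type cannot be told apart from less RNA per cell.

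Dnajc27 encodes a small GTPase fused to a J domain. It was at 23.2, 24.4 and 22.9 CPM in WT libraries against 12.04, 20.2 and 16.3 in S303/7A libraries. The WT libraries were close together, and S303/7A 6 came nearest to them. The log2 fold of -0.54 ± 0.20 (SE) had 0.446 as the adjusted p from edgeR's quasi-likelihood test, and it kept its sign in all 13 alternatives with no call. Its unadjusted p was no longer under 0.05 on leaving out any 1 library other than S303/7A 6. It and Dnajc6 were the 2 at an unadjusted p under 0.05 among 8 members of vesicle traffic and other roles, of which 6 were tested. Over all tested genes 9.68% were under 0.05, and this list was made with earlier results known. Its median fold was -0.09, with 0 calls. Dnajc5, the cysteine string protein of secretory vesicles, was at 285, 281 and 292 CPM in WT libraries against 318, 288 and 312 in S303/7A libraries with overlap (fold 0.10 ± 0.06), and Dnajc13, an endosomal protein, had a fold of 0.0025 ± 0.09. Dnajc12 had one of -0.19 ± 0.24, and Dnajc24, an enzyme-assisting protein of diphthamide synthesis, one of 0.09 ± 0.15.

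Mitochondrial members were 7, with a median log2 fold of 0.07, 0 calls and 1 at an unadjusted p under 0.05 (9.68% of all tested genes were). That one was Dnajc15, an inner membrane protein known as a brake on respiratory complex I. It was at 117, 115 and 118 CPM in WT libraries against 126, 135 and 130 in S303/7A libraries. Every S303/7A library was above every WT library, by a small margin: means were 117 ± 1.42 and 130 ± 4.23 CPM (SD, n = 3 each). The log2 fold was 0.16 ± 0.06 (SE), and the adjusted p from edgeR's quasi-likelihood test was 0.491. On leaving out any 1 library its unadjusted p was no longer under 0.05. Its relative Dnajc19, of the protein import motor, was at 41.0 ± 1.71 and 43.4 ± 1.65 CPM, with a fold of 0.08 ± 0.09. Dnaja3 was at 76.7, 78.2 and 67.3 CPM in WT libraries against 74.7, 82.5 and 61.0 in S303/7A libraries, a fold of -0.03 ± 0.13. Dnajc11 (0.11 ± 0.10), Dnajc28 (0.01 ± 0.25) and Dnajc30 (0.07 ± 0.15) also overlapped. Dnajc4 was at 25.7, 23.9 and 25.5 CPM in WT libraries against 23.3, 22.7 and 21.6 in S303/7A libraries, without overlap, with a fold of -0.15 ± 0.11.

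Members of the nucleus and the ribosome, 5 in all, had a median log2 fold of -0.03 and none at an unadjusted p under 0.05. Of all tested genes, 9.68% were under it. Dnajc2, which sits on the ribosome and guides new chains to HSP70, was at 62.4, 59.2 and 60.7 CPM in WT libraries against 56.7, 55.6 and 49.9 in S303/7A libraries, without overlap. Its fold was -0.17 ± 0.09 (SE), with 0.622 as the adjusted p from edgeR's quasi-likelihood test. Dnajc8 was at 175, 169 and 181 CPM against 169, 175 and 175, and Dnajc9 at 118, 114 and 114 CPM against 127, 129 and 117. Both overlapped, with folds of -0.02 ± 0.06 and 0.11 ± 0.07. Dnajc17 (-0.32 ± 0.23) and Dnajc21 (-0.03 ± 0.20) overlapped as well.

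**Figure D3:**
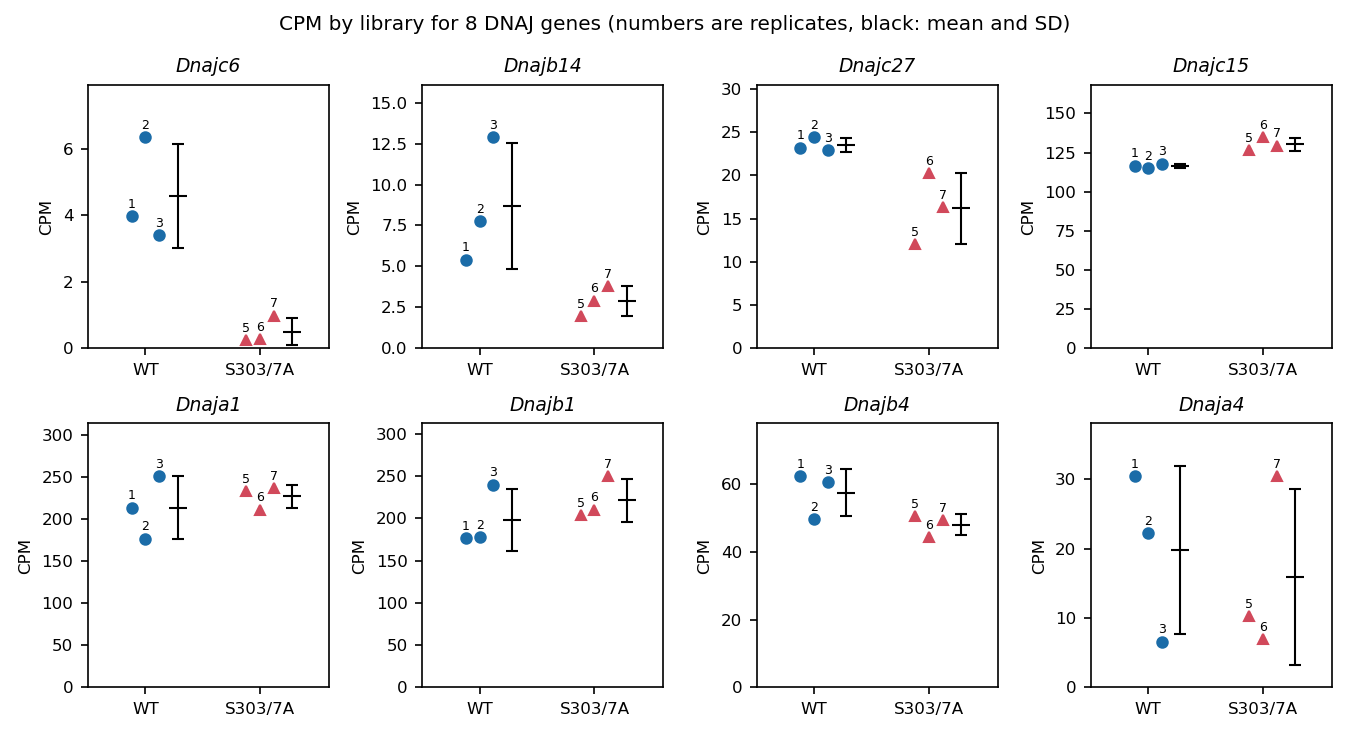
CPM in each library for 8 DNAJ genes, with replicate numbers beside the points and the mean and SD of each genotype in black. Dnajc6, Dnajb14, Dnajc27 and Dnajc15 show no overlap between genotypes, Dnaja1, Dnajb1 and Dnajb4 overlap, and Dnaja4 splits the libraries within each genotype.

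Of the testis-type and cilium members, 4 in all with a median fold of -0.27, none was at an unadjusted p under 0.05. Of all tested genes, 9.68% were. Dnajb8 was at 0.380, 0.239 and 0.313 CPM in WT libraries against 0.140, 0.162 and 0.150 in S303/7A libraries. It reached the filter's level of 0.198 CPM only in WT, so it entered the test only through the genotype in which it was higher. Dnajb3 had the largest spread within a genotype, an SD of 1.21 on the log2 scale in WT, from 1, 18 and 33 reads (0.0159, 0.331 and 0.449 CPM), against 0.303, 0.116 and 0.0856 CPM in S303/7A libraries. Dnajb7 (0.11 ± 0.40) and the cilium gene Dnajb13 (0.12 ± 0.30) overlapped, and Dnajb13 shares 305 exon bases with Ucp2 on the opposite strand, which drew 289822 counts.

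Dnaja4, a cytosolic class A member, had the next largest spread (SD 1.15 in WT). It was at 30.4, 22.3 and 6.61 CPM for WT 1, 2 and 3, against 10.3, 6.98 and 30.4 CPM for S303/7A 5, 6 and 7. High and low libraries occurred in both genotypes, so the difference of -0.31 ± 0.68 (SE) was within that spread, and it was 0.15 without WT 1 and 0.043 without S303/7A 6. Wdr61, on the opposite strand, shares 1581 exon bases with Dnaja4, which is 44.1% of the exons of Dnaja4, and ranged only from 69.9 to 84.7 CPM. Dnaja1, Dnaja2 and Dnaja3 did not split the libraries in this way. In all, 17 of the 45 genes share exon bases with a gene on the other strand, and whether the counting used strand is not given in the sources used here. Besides Dnajb14, 7 members have a stretch of at least 200 bases copied elsewhere at 95% identity or more. Dnaja1 is one of them, matching the pseudogene Gm15542 over 1194 bases at 99.4%, although that copy drew 759 counts against 71596 for Dnaja1.

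The partners of the family in the HSP70 cycle were followed as 34 genes, of which 33 were tested. By edgeR's quasi-likelihood test 0 passed, where 0.364% of all tested genes did, and the median log2 fold of the 33 was 0.03. An unadjusted p under 0.05 was found for 3 of the 33, and for 9.68% of all tested genes. DESeq2 called 2 (Hspa1a and Hspa1b), where it called 2.65% of all genes, and limma-voom called 0. In the HSP70 family itself, 0 of 14 were called. Hspa8, the constitutive HSP70 and main partner of cytosolic J proteins, was at 763, 678 and 834 CPM in WT libraries against 591, 716 and 698 in S303/7A libraries, with overlap. Hspa5, the ER partner of Dnajb9 and Dnajb11, was at 861, 850 and 759 CPM against 856, 923 and 720, also with overlap. Their log2 folds were -0.18 ± 0.10 and 0.02 ± 0.10 (SE).

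Hspa1a and Hspa1b are the inducible HSP70 genes. Hspa1b was at 13.0, 89.3 and 10.9 CPM in WT libraries against 1.82, 3.02 and 2.08 in S303/7A libraries, a log2 fold of -4.03 ± 0.88 (SE) with 0.181 as the adjusted p from edgeR's quasi-likelihood test. Hspa1a had a fold of -3.61 ± 1.07 with an adjusted p of 0.331. WT 2 was the high library for both, and without it the fold of Hspa1b was -2.38 and that of Hspa1a -1.49, both nearer to 0 than the -2.86 of Dnajc6 in that fit. For both genes, WT 1 and WT 3 still stood above every S303/7A library. Hspa1a was at 1.76, 15.1 and 0.952 CPM in WT libraries against 0.420, 0.626 and 0.407 in S303/7A libraries. Without WT 2 the adjusted p of Hspa1b from edgeR's quasi-likelihood test was lower, 0.1035, while that of Hspa1a was higher, 0.601. In that same WT 2 library Dnajb1, Dnaja1 and Dnajb4 were at 178, 176 and 49.5 CPM, and the last 2 had their lowest WT value there. The immediate early genes, 10 in number, summed to 1009 CPM in WT 2 and to 602.5 to 655.1 CPM in the other 5 libraries. Hyou1, an ER relative of HSP70 that exchanges nucleotide on Hspa5, was at 58.4, 71.5 and 52.7 CPM in WT libraries against 50.3, 44.7 and 43.5 in S303/7A libraries, without overlap, and its fold of -0.40 ± 0.13 had an adjusted p of 0.399.

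Of 10 nucleotide exchange factors, which release the substrate that J proteins load, 0 passed, with 0 also at an unadjusted p under 0.05. The same held for 5 co-chaperones with tetratricopeptide repeats and for the J-domain genes Sec63, Hscb and Gak, which carry no DNAJ name. Over all tested genes 0.364% passed and 9.68% were at an unadjusted p under 0.05.

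**Figure D4:**
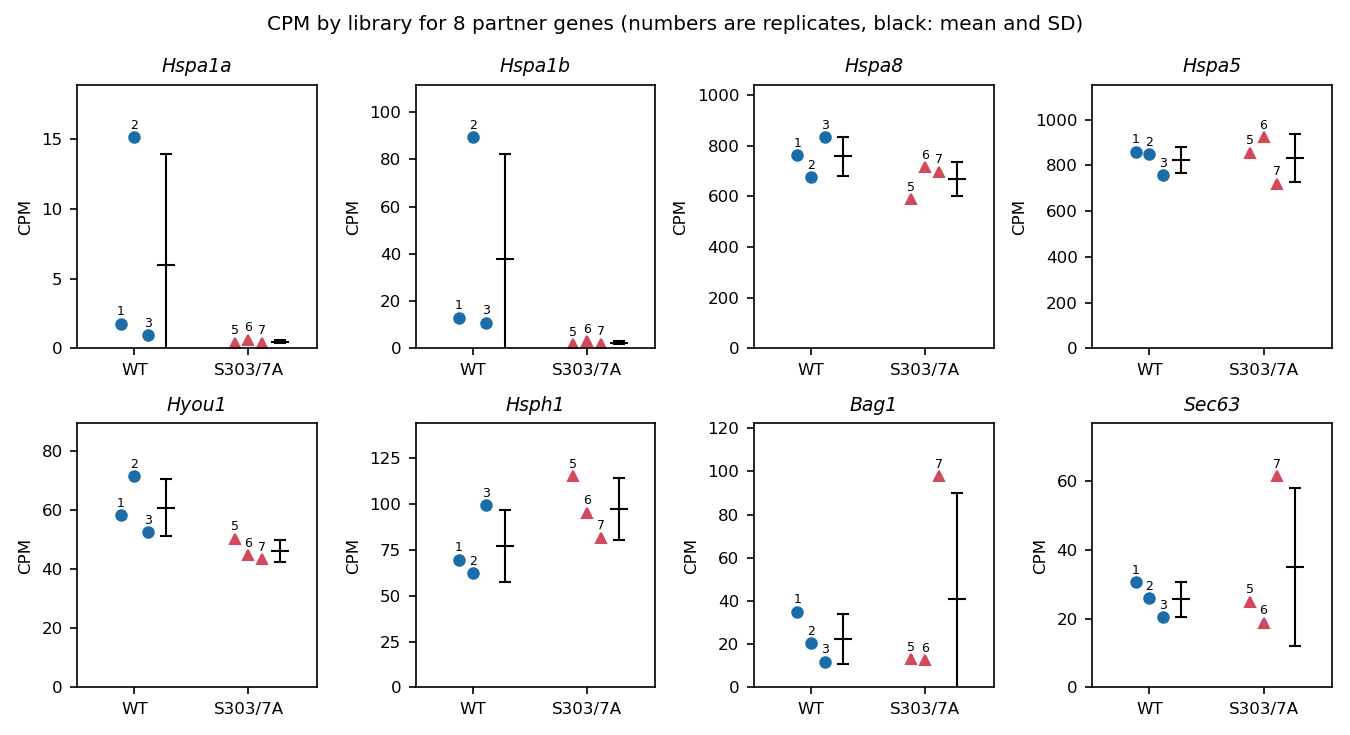
CPM in each library for 8 genes that act with J-domain proteins, with replicate numbers beside the points and the mean and SD of each genotype in black (bars cut at 0). WT 2 stands above all other libraries for Hspa1a and Hspa1b, Hspa8 and Hspa5 overlap between genotypes, and S303/7A 7 is the highest library for Bag1 and Sec63.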

How the data were processed

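The submitters' processing notes name the tools Trimmomatic, STAR, featureCounts and DESeq2 and the build GRCm38 (mm10). For versions, annotation release and strand setting, nothing was given in the sources used. Raw counts per gene and a normalized signal per gene were deposited by the authors. The ratio of the deposited counts to the deposited signal was 1 factor per library, from 0.817 to 1.40, and multiplying back gave whole reads within 0.01 for 100% of values, so the count test on those reads is the test on the raw counts (60 genes called). The SMART-seq HT kit was used, per the labels' protocols. Totals ranged from 53845572 to 72736406 counts for WT against 43189163 to 47248039 for S303/7A, so depth differed with genotype. Replicate pairs differed by more than counting noise (chi-square per gene 26.5 to 82.0).

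Raw counts were tested in R 4.3.3 with edgeR 4.0.16: filterByExpr (minimum count 10, minimum total 15, 16480 genes left), TMM and the quasi-likelihood test, with Benjamini-Hochberg adjustment over all genes tested and a threshold of 0.05. Each SE is the log2 fold divided by the root of the F statistic, and intervals are 95% from the t distribution. Spread on the log2 scale used a pseudocount of 0.1 CPM. Alternatives were DESeq2 1.42.0, limma-voom 3.58.1, other scalings, no low-count filter, a robust fit, thinning to 43189163 counts and leaving out each library. The scripts were tested on simulated data. Lengths and positions are from GENCODE release M21, and copies were sought with blastn 2.17.0.

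Genes were named by rule: members at an unadjusted p under 0.05, 6 known stress genes, the 3 highest per kilobase in each class, members without overlap, the 3 of largest spread, and partner genes at an unadjusted p under 0.05 or among 4 HSP70 genes. Others are examples chosen after their values were seen. The members and lists were chosen with earlier results of these data known.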

Additional observations from a re-analysis of the deposited data

How the results depend on the processing

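No paired analysis was possible because the genotypes share no replicate number. The count of DNAJ members called, 0, became 2 in DESeq2, 1 without the low-count filter, 0 to 1 on leaving out single libraries (1 without S303/7A 7), and stayed at 0 in the other alternatives. Members at an unadjusted p under 0.05 numbered 3 to 5 in every alternative. Partner genes called, 0, became 2 in DESeq2 and 1 without the filter (Hspa1b). Over all genes the 60 calls became 437 in DESeq2, 171 without the filter, 38 in limma-voom and 5 to 57 on leaving out single libraries. With library totals over all counts and no TMM, the difference in summed CPM went from 42.4 to 3.51 for class C. It went from 10.3 to -1.62 for class B and from 23.8 to 12.8 for class A. On leaving out single libraries it ranged from 23.1 (without S303/7A 5) to 54.3 for class C, from -5.38 (without WT 1) to 35.7 for class B and from 4.70 (without WT 2) to 34.7 for class A. The cause of these shifts was not tested.

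Signs were followed for the genes named by rule. With library totals, uncalled log2 folds among them changed sign for Dnajb11 (-0.013) and Hspa5 (-0.011). On leaving out single libraries, folds ranged from -0.042 to 0.22 for Dnaja1, from -0.059 to 0.049 for Dnajb11, from -0.13 to 0.083 for Dnaja3, from -0.054 to 0.0077 for Dnajc8, from -1.20 to 0.15 for Dnaja4 and from -0.064 to 0.11 for Hspa5. No other gene named by rule changed sign in any alternative. With 3 libraries per genotype and 60 calls in all, small folds are at the limit of the test.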

Other observations

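The library split of Dnaja4 was looked at further after its values were seen. Across the 6 libraries, 202 of the 16479 other tested genes (1.23%) had a Pearson r over 0.95 with Dnaja4 on the log2 scale. No other DNAJ member and no partner gene was among them. Eomes, a transcription factor of NK cells, was one, at 476, 316 and 148 CPM for WT 1, 2 and 3, against 180, 140 and 717 CPM for S303/7A 5, 6 and 7 (r 0.96). Bag1, a nucleotide exchange factor of HSP70, was at 35.1, 20.4 and 11.9 CPM in WT libraries against 13.0, 12.5 and 97.8 in S303/7A libraries (r 0.84). Sec63, the J-domain protein of the ER translocon, was at 30.7, 25.9 and 20.4 CPM in WT libraries against 24.9, 18.9 and 61.4 in S303/7A libraries (r 0.79). Bag1 and Sec63 lay under the cut of 0.95 and were picked from the partner genes after their values were seen. In all 4 genes WT 1 was the highest WT library and S303/7A 7 the highest S303/7A library. How many of all genes share that order was not counted. These correlations describe 6 libraries that share preparation and depth differences, and their cause was not tested.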
